A study of Mus musculus with 12 samples.

Results

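The genes *Lrat*, *Reln*, *Pdgfra*, *Pdgfrb*, *Ngfr*, *Hgf*, *Hand2*, *Colec11* and *Cygb* are known in mouse liver as genes of hepatic stellate cells. These 9 genes were taken by name from the 16971 genes listed in a bulk RNA-seq table of GFP(+) liver cells, and all 9 were listed. The cells were sorted by FACS from the nonparenchymal fraction of livers of adult mice of both sexes on a background labelled C57BL/6 (a cross of C57BL/6N and C57BL/6J stocks by the study's methods), which carried the alleles Prom1CreERT2-nLacZ/+ and Rosa26Lsl-GFP/+. In these mice Cre is made from the *Prom1* locus, and tamoxifen lets it switch on GFP for good, so that GFP marks any cell that used *Prom1* at that time and the descendants of that cell. Every animal received tamoxifen 7 days before surgery, the controls included. The group labelled sham day 0 (D0, 3 libraries) served as control. The BDL groups were collected 3 days (BDL D3, 3 libraries) and 14 days (BDL D14, 4 libraries in the means) after bile duct ligation, which stops the outflow of bile and leads to biliary fibrosis.

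Stellate cells lie between hepatocytes and sinusoidal endothelial cells and store vitamin A as retinyl esters in lipid droplets. After injury they are known to lose these stores, to divide in response to PDGF and to make collagen and contractile proteins as myofibroblasts. The label on the samples was Prom1(+) progenitor cells and their progeny, so the 9 genes belong, by their usual use, to another cell type of the same fraction.

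Markers of several other cell types had higher summed means at D0. Summed over each list, the normalized counts at D0 were 10970 for 10 macrophage markers, 4337 for 10 hepatocyte markers, 1348 for 10 sinusoidal endothelial markers, 685 for 8 smooth muscle and myofibroblast markers and 536 for 10 cholangiocyte markers, of which *Spp1* made up 459 and the other 9 markers 77.4. The 9 stellate cell genes summed to 88.5 at D0, 17.2 at BDL D3 and 35.5 at BDL D14. Of these sums *Hgf*, whose means were higher after BDL, made up 3.73, 10.8 and 22.1. *Prom1*, the gene that drives Cre, had means of 6.66, 0.956 and 1.76 in that order. In bulk libraries, fewer cells of a type and less RNA per cell cannot be told apart.

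The sequences just before 3 of the genes are shown because these genes took different courses after BDL. The mean of *Lrat* was lowest at BDL D14, that of *Hand2* was at its lowest at BDL D3, and that of *Hgf* was highest at BDL D14. The letters are RefSeq's for GRCm38.p6, from 250 bases before the annotated start up to the start, 5′ to 3′ on the strand of the gene. Capitals mark 4 motifs on either strand. They are the E-box CANNTG, which HAND2-type factors read, the TATA box TATAAA, the CCAAT box, and the GC box GGGCGG. The *Lrat* stretch is chr3:82903975-82904224 on the minus strand, that of *Hand2* is chr8:57320733-57320982 on the plus strand, and that of *Hgf* is chr5:16553245-16553494 on the plus strand.
Lrat: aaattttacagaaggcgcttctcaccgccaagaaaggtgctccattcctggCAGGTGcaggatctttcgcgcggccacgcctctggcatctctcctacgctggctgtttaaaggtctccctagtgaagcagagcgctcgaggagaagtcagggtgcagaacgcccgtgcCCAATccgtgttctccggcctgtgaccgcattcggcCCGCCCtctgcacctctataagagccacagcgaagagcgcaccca
Hand2: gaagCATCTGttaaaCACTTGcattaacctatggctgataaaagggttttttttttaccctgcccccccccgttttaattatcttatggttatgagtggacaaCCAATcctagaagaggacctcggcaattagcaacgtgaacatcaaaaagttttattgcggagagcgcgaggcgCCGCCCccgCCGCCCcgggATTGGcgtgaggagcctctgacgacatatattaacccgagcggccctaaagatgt
Hgf: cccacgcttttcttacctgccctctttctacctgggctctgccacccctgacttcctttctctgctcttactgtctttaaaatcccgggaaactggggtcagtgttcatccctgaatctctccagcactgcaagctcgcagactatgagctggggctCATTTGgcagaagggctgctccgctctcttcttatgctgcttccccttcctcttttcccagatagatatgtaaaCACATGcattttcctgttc

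Each of the 3 stretches held at least 1 E-box, and that of *Hgf* held none of the other motifs. Promoters were given for 7 of the 9 genes, and CANNTG was in 7 of these 7. It was in 66.2% of all 32807 mouse promoters of this length, so its presence is common. CCAAT was in 2 of the 7 (*Lrat* and *Hand2*) against 33.8% of all promoters, GGGCGG in 4 against 32.7%, and TATAAA in 0 against 12.4%. GC content ranged from 49.2% before *Hand2* to 80.0% before *Reln*, and the median of all promoters was 52.4%. These are matches of letters and no measurement of binding.

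The table gives 1 mean of normalized counts per group and no value of a single library, so no test was possible and differences below are ratios of means. Even with values per library, an exact two-sided permutation test could not go under p = 0.1 for 3 libraries against 3, or under 0.0571 for 3 against 4. The table does give the count of the highest of the 10 libraries for each gene. From the group sums and this count, the lowest and highest value that a library of each group can have was worked out by arithmetic. Groups are said to be separated where every value that a library of one group can have lies above every value that a library of the other can have. The SD given beside a D0 mean is the range that the same sums allow with the highest library in D0. This SD range takes the printed values as exact, whereas the bounds on libraries allow for rounding, so its limits are approximate. For *Cygb* the highest library was placed in D0 only by the deposited geometric mean over the 10 libraries.

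After BDL, 8 of the 9 stellate cell genes had means over 1.5-fold below D0 at both times, and *Hgf* had means over 1.5-fold above it. At BDL D3, 36.2% of all genes listed lay over 1.5-fold lower and 20.1% over 1.5-fold higher. At BDL D14 these shares were 33.6% and 22.8%. Among the 12891 genes with a summed normalized count of 10 or more, the shares were 29.2% lower and 19.2% higher at BDL D3, and 28.8% lower and 21.2% higher at BDL D14. *Ngfr* was the member that this minimum removed, with a sum of 7.55. The median log2 ratio of all 9 genes was -3.38 at BDL D3 and -3.42 at BDL D14 (-2.97 with means near the floor set at their bound), beside -0.13 and -0.089 for all genes listed. Both comparisons use the same D0 libraries.

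**Figure D1:**
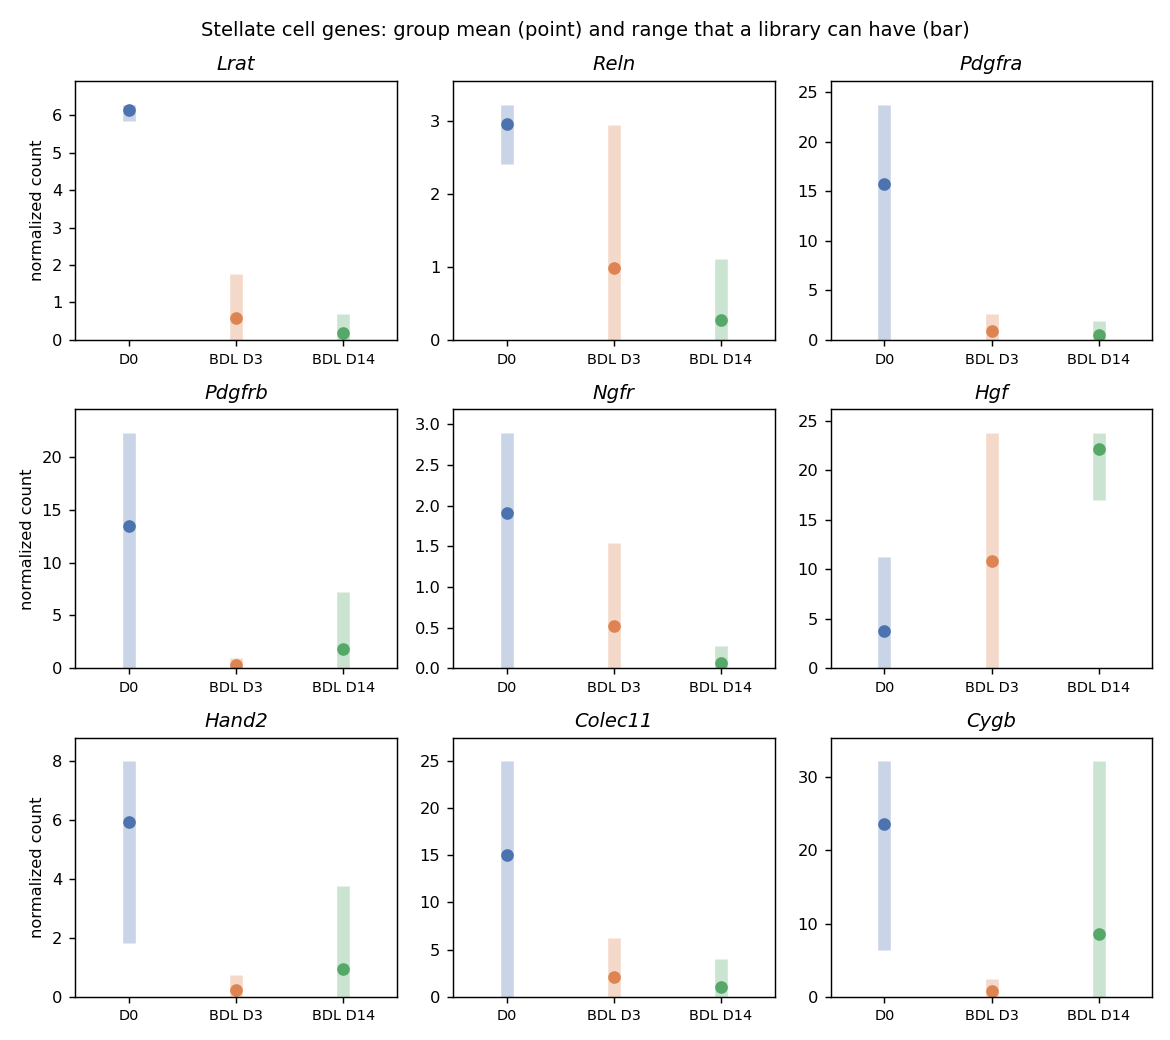
Normalized counts (vertical axes, each from 0) of the 9 stellate cell genes at D0, BDL D3 and BDL D14. Points are the authors' group means and bars the range in which each library of the group must lie. The D0 bar stands clear of both BDL bars only for Lrat, from 5.84 to 6.29 against highs of 1.77 and 0.694.

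*Lrat* encodes the enzyme that esterifies retinol, the step that fills the lipid droplets (chr3:82892579-82903973, minus strand). Its mean was 6.14 at D0 (SD between 0.121 and 0.242, n = 3), 0.590 at BDL D3 and 0.173 at BDL D14. The 3 D0 libraries had to lie between 5.84 and 6.29, no BDL D3 library could exceed 1.77, and no BDL D14 library could exceed 0.694. So all 3 D0 libraries lay above all libraries of both BDL groups. The log2 ratio to D0 was -3.38 at BDL D3, a 10.4-fold lower mean. The BDL D14 mean lay within 4 times the lowest mean that any gene had in that group (0.0610), which was read as the floor, so it counts as at least 25.2-fold lower. *Lrat* was the most even of the 8 genes whose highest library was placed in D0, with 34.1% of the D0 sum in its highest library.

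Of the partners of *Lrat* in vitamin A and lipid handling, *Aldh1a1*, which oxidizes retinal to retinoic acid, had means of 74.7, 14.4 and 7.33 and was 10.2-fold lower at BDL D14, with all libraries separated there. *Lpl*, the lipoprotein lipase that macrophages also make, had means of 540, 1250 and 680. *Pnpla2*, the triglyceride lipase of lipid droplets, had means of 77.1, 115 and 70.3, under 1.5-fold from D0 at both times.

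*Reln* encodes reelin, a large secreted glycoprotein best known from the developing brain (chr5:21884454-22344702, minus strand). Its means were 2.96 at D0 (SD between 0.225 and 0.450, n = 3), 0.980 at BDL D3 and 0.277 at BDL D14. The D0 libraries lay between 2.42 and 3.23, and the highest had 36.3% of the D0 sum. A BDL D3 library could reach 2.94, so that group may overlap D0, and a BDL D14 library could reach only 1.11, so that group lay below it in every library. The means were 3.02-fold and 10.7-fold lower. After quantile normalization of the group means the log2 ratio of *Reln* at BDL D3 was -0.47, under 1.5-fold, and 6 genes over the minimum in place of 7 were over 1.5-fold lower. *Vldlr*, a reelin receptor, was also lower, with means of 2.44, 0.301 and 0.528. *Lrp8*, the other reelin receptor on the list of partners, is given for that link, outside the rule for named genes. It had means of 0.461 (at the floor), 0.411 and 3.22, and was at least 6.29-fold higher than D0 at BDL D14.

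The PDGF receptors differed in when their means were lowest. *Pdgfra* (chr5:75152292-75198215, plus strand) encodes the alpha receptor and had means of 15.7 at D0 (SD between 6.93 and 13.6, n = 3), 0.877 at BDL D3 and 0.481 at BDL D14, which are 17.9-fold and 32.6-fold lower. *Pdgfrb*, on chromosome 18, encodes the beta receptor through which PDGF-BB drives division of stellate cells. Its means were 13.5 at D0 (SD between 7.53 and 11.9, n = 3), 0.319 at BDL D3 and 1.80 at BDL D14, so it was 42.3-fold lower at BDL D3 and 7.50-fold lower at BDL D14. Its mean was 5.64-fold higher at BDL D14 than at BDL D3, where that of *Pdgfra* was 1.82-fold lower. The *Pdgfrb* mean at BDL D3 lay just above the floor of 0.292, so folds that use it are uncertain in size. With a pseudocount of 1, the log2 ratio of *Pdgfrb* at BDL D3 to D0 was -3.46. The log2 ratio of BDL D14 to BDL D3 was then 1.09 for *Pdgfrb* and -0.342 for *Pdgfra*, the last under 1.5-fold. For both receptors, by the group sums and the highest library alone, a D0 library could be as low as 0. This is because the highest library, which was of D0, had 50.3% and 54.8% of the D0 sum. With the geometric mean also used, a D0 library could be as low as 0.0846 and 0.0533. An overlap with the BDL groups was therefore possible for both.

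The 4 PDGF ligands were on the list of partners and are given for their link to these receptors, outside the rule for named genes. *Pdgfd*, a ligand of the beta receptor, had means of 10.6, 0.747 and 3.40, with every BDL D3 library below every D0 library. *Pdgfa* had means of 6.01, 4.81 and 3.83, *Pdgfb* of 12.2, 13.4 and 8.70, and *Pdgfc* of 14.8, 27.8 and 22.1. So *Pdgfb*, whose product binds both receptors, was within 1.5-fold of D0 at both times, where the receptor means were lower by 7.50-fold or more.

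*Ngfr* encodes the p75 neurotrophin receptor (chr11:95568818-95587735, minus strand). Its means were 1.91 at D0 (SD between 0.849 and 1.65, n = 3), 0.515 at BDL D3 and 0.0688 at BDL D14. The last value lay at the floor, so it was at least 7.83-fold lower than D0, and the BDL D3 mean was 3.71-fold lower. By the group sums and the highest library alone, a D0 library could be as low as 0, so the groups may overlap. Of the related Trk receptors, *Ntrk2*, which binds BDNF, had means of 9.00, 0.0729 and 0.131 and was at least 30.9-fold and at least 36.9-fold lower, with all D0 libraries above all libraries of both BDL groups. *Ntrk3*, which binds neurotrophin-3 and was under the minimum, had means of 2.56, 0.211 and 0.0610 and was at the floor in both BDL groups. Its highest library held 90.4% of the D0 sum, and the other 2 averaged 0.370, also at the floor.

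*Hgf* encodes hepatocyte growth factor, a mitogen that stellate cells supply to hepatocytes and that other nonparenchymal cells also make (chr5:16553495-16620152, plus strand). It was the member with higher means after BDL, with 3.73 at D0, 10.8 at BDL D3 and 22.1 at BDL D14. Each BDL D14 library lay between 16.9 and 23.8, and no D0 library could exceed 11.2, so the groups were separated. Such a separation upwards was found for 0.101% of the genes over the minimum. By the group sums and the highest library alone, a BDL D3 library could be anywhere from 0 to 23.8, so that group may overlap both others. The means were 2.90-fold and 5.92-fold above D0. *Hgf* shares 484 exon bases (6.74%) with *Gm43489* on the same strand, which had means of 0.384, 0.150 and 1.14. *Met*, the HGF receptor, named for that link and outside the rule for named genes, had means of 2.31, 0.803 and 2.41. *Hgfac*, the protease that activates HGF, had means of 6.33, 1.05 and 0.146, and its BDL D14 mean was at least 25.9-fold lower. Macrophage markers stood beside *Hgf* at BDL D14, where *Lyz2* had a mean of 11200 against 2280 at D0 and *Clec4f*, a Kupffer cell marker, 185 against 4610. Their part in the *Hgf* values was not tested.

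*Hand2* encodes a basic helix-loop-helix transcription factor of the mesenchyme (chr8:57320983-57324633, plus strand). Its means were 5.94 at D0 (SD between 1.77 and 3.53, n = 3), 0.247 at BDL D3 and 0.940 at BDL D14. The BDL D3 mean lay at the floor and was at least 20.4-fold lower, and the BDL D14 mean was 6.32-fold lower. The D0 libraries lay between 1.84 and 7.99, above the 0.743 that a BDL D3 library could reach, and a BDL D14 library could reach 3.76. So BDL D3 was separated from D0 and BDL D14 may overlap it. *Hand2os1*, a noncoding transcript on the opposite strand, shares 461 exon bases (19.6% of the *Hand2* exons) and had means of 4.62, 0.240 and 0.434. Whether the counting used strand is not given in the sources used here, so reads in the shared bases cannot be assigned to either gene. Of the E-proteins that pair with HAND2, *Tcf4* had means of 33.8, 18.3 and 32.7, and *Tcf3* of 32.5, 34.4 and 13.7. *Tcf12* had means of 19.6, 18.3 and 37.5. These 3 were added for their known pairing with HAND2, outside the rule for named genes.

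*Colec11* encodes a collectin of the lectin pathway of complement (chr12:28594173-28623377, minus strand). Its means were 15.0 at D0 (SD between 8.57 and 13.2, n = 3), 2.08 at BDL D3 and 1.01 at BDL D14, which are 7.21-fold and 14.9-fold lower. Among the 8 genes whose highest library was placed in D0, its D0 libraries were the least even, with 55.3% of the D0 sum in the highest. By the group sums alone a D0 library could be at 0. When the geometric mean over the 10 libraries was also used, each had to be at least 3.00 and no BDL D14 library could exceed 2.39, which separated these groups. *Colec10*, whose product forms complexes with that of *Colec11*, had means of 27.4, 1.44 and 0.253 and was 19.0-fold and 108-fold lower, the last mean being just above the floor of 0.244. Its highest library held 59.9% of the D0 sum, and without it the means were 11.5-fold and 65.2-fold lower. *Masp1*, the protease that these collectins carry, had means of 49.5, 10.2 and 38.1.

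*Cygb* encodes cytoglobin, a globin of stellate cells (chr11:116645595-116654313, minus strand). It had the highest D0 mean of the set, at 23.6 (SD between 7.36 and 14.7, n = 3), with 0.788 at BDL D3 and 8.62 at BDL D14. It was 29.9-fold lower at BDL D3 and 2.74-fold lower at BDL D14. The D0 libraries lay at 6.35 or more and no BDL D3 library could exceed 2.37, so these were separated. A BDL D14 library could be as high as 32.2, so that group may overlap D0. The mean at BDL D14 was 10.9-fold above that at BDL D3. *Cygb* shares 201 exon bases (8.62%) with *Prcd* on the opposite strand.

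**Figure D2:**
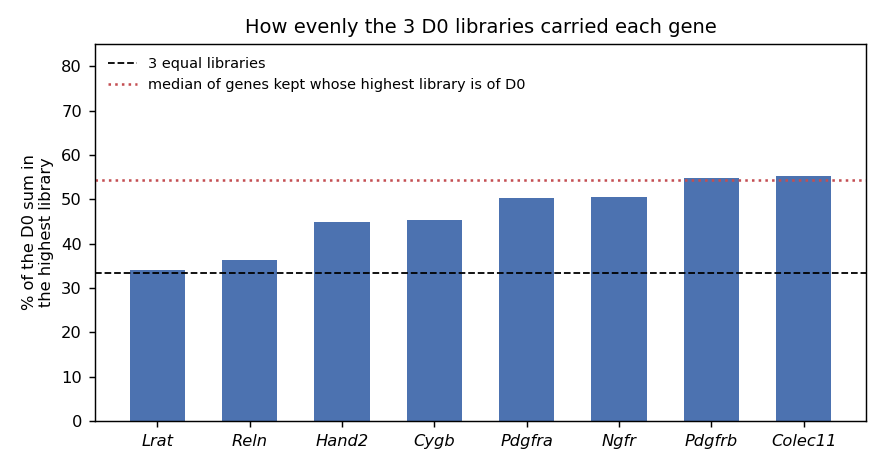
Share of the summed D0 count that lay in the highest library (vertical axis, %), for the 8 genes whose highest library was of D0 (for Cygb by the geometric mean). The bars run from 34.1% for Lrat to 55.3% for Colec11, beside 33.3% for 3 equal libraries (dashed) and 54.4% for the median of 1359 such genes (dotted).

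The D0 means of these 8 genes did not rest on the highest library alone. With the highest library taken out of the D0 mean, the log2 ratio at BDL D3 was between -4.84 (*Pdgfrb*) and -1.46 (*Ngfr*) in 8 of 8 genes. At BDL D14 it was between -4.60 (*Pdgfra*) and -1.17 (*Cygb*) in the genes with means above the floor. *Lrat* and *Ngfr*, at the floor there, were at least 24.9-fold and at least 5.82-fold lower. The highest library of *Hgf* could not be placed in a group.

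Separation of all libraries was found for 3 of the 8 genes over the minimum at BDL D3 (*Cygb*, *Hand2* and *Lrat*), where 1.82% of all genes over the minimum were separated downwards. At BDL D14 it was found for *Lrat* and *Reln*, against 1.49%, and upwards for *Hgf*, as given above. In the remaining cases the group sums and the highest library do not show whether the ranges overlap.

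Between BDL D3 and BDL D14 the genes took 2 directions. *Lrat*, *Reln*, *Pdgfra* and *Colec11* had means over 1.5-fold lower at BDL D14 than at BDL D3, where 19.7% of all genes over the minimum did, and *Ngfr*, under the minimum, was at least 2.11-fold lower. *Cygb*, *Hand2*, *Hgf* and *Pdgfrb* were over 1.5-fold higher, where 21.2% of genes were. The lower means were 1.82-fold (*Pdgfra*) to 3.54-fold (*Reln*) lower, and the higher ones 2.05-fold (*Hgf*) to 10.9-fold (*Cygb*) higher, and no member was separated between these groups.

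**Figure D3:**
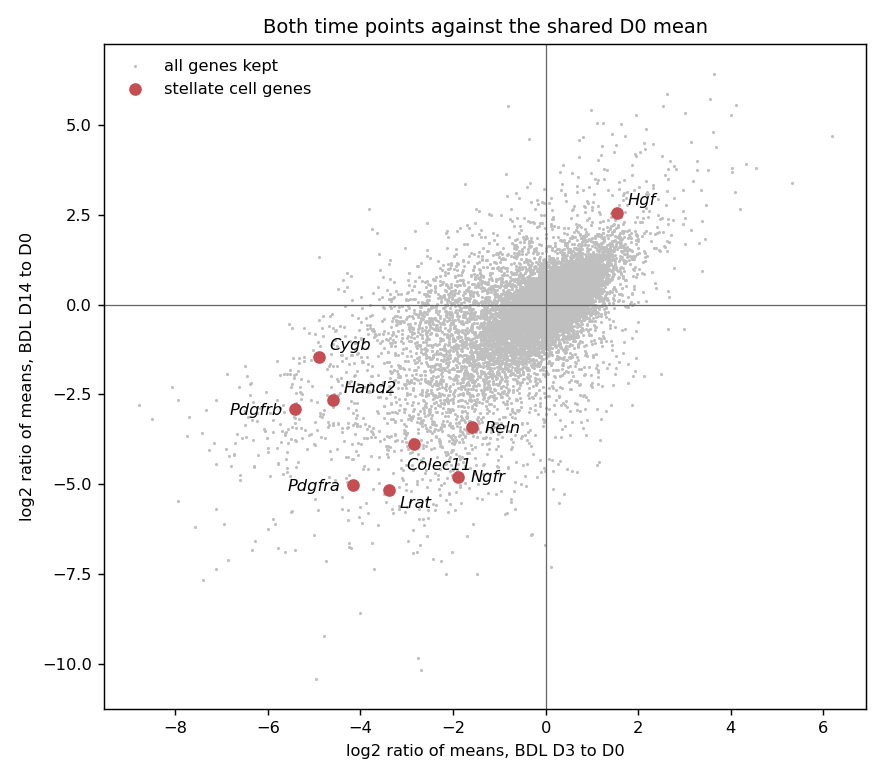
Log2 ratio of means to D0 at BDL D3 (horizontal) and BDL D14 (vertical), for all genes over the minimum (grey) and the 9 stellate cell genes (red). Hgf is at 1.53 and 2.57, and the other 8 are below 0 on both axes. The axes share the D0 mean, so the slope of the grey cloud is partly fixed by construction.

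To compare levels between genes, means were divided by the length of the longest annotated transcript. At D0 the order was *Cygb* (10.1 normalized counts per kb), *Colec11* (9.36), *Hand2* (2.53), *Pdgfrb* (2.49), *Pdgfra* (2.30), *Lrat* (1.15), *Hgf* (1.08), *Ngfr* (0.554) and *Reln* (0.253). At BDL D14 *Hgf* was first with 6.37 per kb, ahead of *Cygb* with 3.70 and *Colec11* with 0.630, and *Ngfr* was last with 0.0200. In each group the range that a library could have overlapped between every gene and the next in the order. Divided by all annotated exons instead, *Hgf* came second to *Cygb* at BDL D14, with 3.08 against 3.70 per kb.

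Other genes known from stellate cells were listed to see whether they moved alike, and 24 of 26 were in the table, 20 of them over the minimum. At BDL D3, 19 of these 20 had means over 1.5-fold lower and 0 higher, beside 29.2% and 19.2% of all genes over the minimum. At BDL D14, 16 were lower and 1 higher, beside 28.8% and 21.2% of all genes over the minimum. The 4 with the highest D0 means were *Ecm1*, *Rgs5*, *Cxcl12* and *Sod3*. *Ecm1*, a secreted matrix protein, had means of 108, 155 and 154, under 1.5-fold from D0. *Rgs5*, a pericyte regulator of G protein signaling, had means of 104, 4.96 and 35.0, and *Cxcl12*, the ligand of CXCR4, of 57.8, 2.75 and 4.95. *Sod3*, the extracellular superoxide dismutase, had means of 37.7, 2.59 and 3.43, and without its highest D0 library it was 9.09-fold and 6.87-fold lower in place of 14.6-fold and 11.0-fold. The gene that was higher at BDL D14 was *Ednrb*, an endothelin receptor, with 15.8, 4.59 and 37.6, named after its values were seen. The median log2 ratio of these 20 genes was -2.92 at BDL D3 and -2.79 at BDL D14.

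Of the 34 partners of the 9 genes (ligands, receptors, proteases and cofactors), 26 were over the minimum. At BDL D3, 15 of them were over 1.5-fold lower and 2 higher, and at BDL D14, 13 were lower and 4 higher. Of all genes over the minimum, 29.2% were lower and 19.2% higher at BDL D3, and 28.8% and 21.2% at BDL D14. The median log2 ratios of the 26 partners were -1.11 and -0.57.

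Markers of neighbouring mesenchymal cells were also lower after BDL. All 8 markers of myofibroblasts and smooth muscle were over 1.5-fold lower at both times. Of all genes over the minimum, 29.2% were lower at BDL D3 and 28.8% at BDL D14. The summed normalized counts of these 8 markers were 685, 12.2 and 51.4. *Acta2*, smooth muscle actin, had means of 228, 3.86 and 19.7, *Tagln* of 142, 3.35 and 14.4, *Myh11*, smooth muscle myosin, of 96.0, 0.982 and 3.26, and *Myl9* of 94.2, 1.79 and 6.70. Of 10 portal fibroblast markers over the minimum, 10 were lower at BDL D3 and 8 at BDL D14, beside the same shares of all genes. *Cd34* and *Pi16*, named for this count and outside the rule for named genes, were within 1.5-fold of D0 at BDL D14. Their means were 26.1 and 6.47 at D0 and 22.3 and 7.04 at BDL D14. The list of 11 summed to 302, 18.8 and 63.9. *Dpt*, a matrix protein of fibroblasts, had means of 82.5, 0.227 and 9.16, *Eln*, elastin, of 63.1, 1.84 and 5.07, *Mfap4* of 42.2, 0.196 and 3.35, and *Thy1* of 29.8, 7.06 and 4.01. Without the highest D0 library, *Myh11* was 46.8-fold and 14.1-fold lower in place of 97.8-fold and 29.4-fold. *Eln* was then 21.5-fold and 7.82-fold lower in place of 34.3-fold and 12.4-fold, and *Mfap4* at least 89.2-fold and 7.76-fold lower in place of at least 145-fold and 12.6-fold. In these lists the BDL D3 means of *Cnn1*, *Lmod1*, *Mfap4*, *Dpt*, *Clec3b* and *Gli1* lay at the floor. The part of these cells in the values of the stellate cell genes was not tested.

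**Figure D4:**
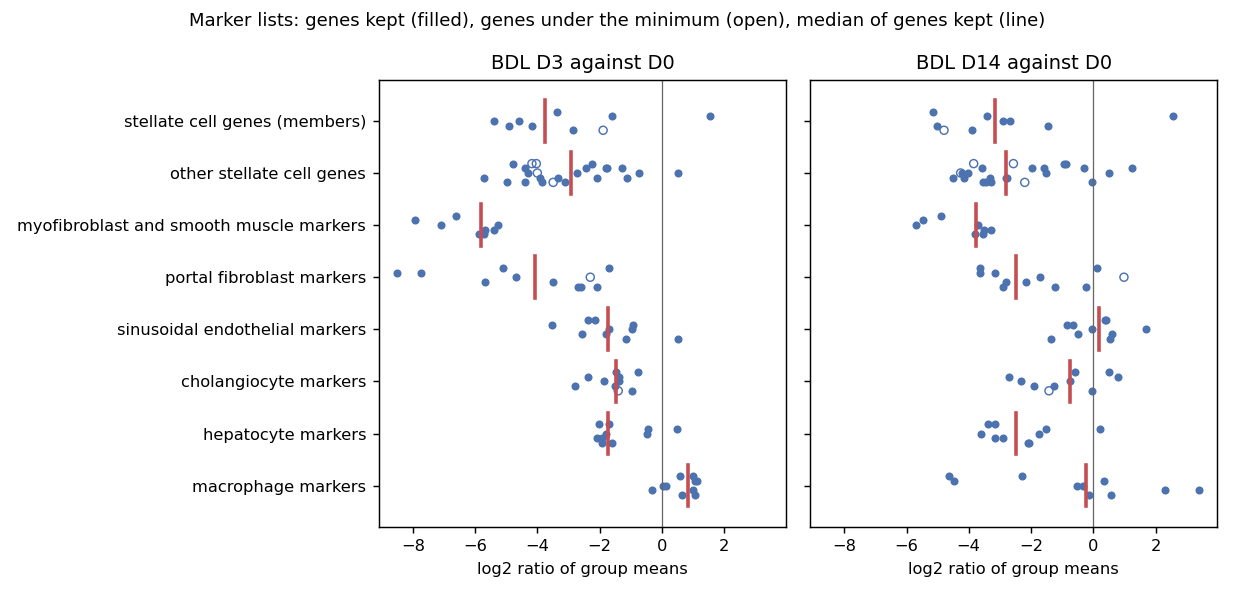
Log2 ratio of group means to D0 at BDL D3 (left) and BDL D14 (right) for the genes of 8 lists, with genes over the minimum filled, genes under it open and the median of the filled points as a line. The medians of the 8 stellate cell genes over the minimum (-3.77 and -3.16) and of smooth muscle markers (-5.80 and -3.76) are below 0 at both times, and that of macrophage markers is 0.83 and -0.24.

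Lists for the other cell types had median log2 ratios at BDL D3 and BDL D14 of -1.74 and -2.49 (hepatocytes), -1.75 and 0.18 (sinusoidal endothelium) and -1.49 and -0.75 (cholangiocytes). With means at the floor set at their bound, the medians against D0 of the lists described here came out the same. Among all genes over the minimum, 29.2% were over 1.5-fold lower and 19.2% higher at BDL D3, and 28.8% and 21.2% at BDL D14. Of 10 hepatocyte markers, 7 were lower at BDL D3 and 9 at BDL D14, and the list summed to 4337, 2158 and 1392. *Alb* had means of 2440, 642 and 271 with all libraries separated at both times, and *Trf* had means of 804, 1130 and 939. *Serpina1a* and *Ahsg* had D0 means of 353 and 223 and BDL D14 means of 28.9 and 52.2. Of 10 sinusoidal endothelial markers, 9 were lower at BDL D3 and 3 at BDL D14, with sums of 1348, 656 and 1671. *Clec4g* had means of 241, 69.5 and 365, *Cdh5* of 207, 299 and 81.5, *Fcgr2b* of 185, 57.0 and 603, and *Stab2* of 178, 93.7 and 113. Of 9 cholangiocyte markers over the minimum, 9 were lower at BDL D3 and 6 at BDL D14, with sums over 10 markers of 536, 207 and 841, led by *Spp1* at 459, 175 and 792, *Krt19* at 21.5, 12.7 and 14.3, *Epcam* at 12.9, 4.97 and 7.69 and *Krt7* at 10.9, 5.61 and 10.7. Of 10 macrophage markers 0 were lower and 6 higher at BDL D3, and 3 were lower and 2 higher at BDL D14. At BDL D14 the macrophage counts, and the count of lower endothelial markers, lay near the shares of all genes. *Csf1r*, the receptor for macrophage colony stimulating factor, had means of 1360, 2140 and 1230, and *Vsig4* of 1020, 2040 and 207. The part of these cells in the stellate cell gene values was not tested.

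The genes most like the 9 in their course were found among 7424 genes with a D0 mean of at least 10, by the distance between their 2 log2 ratios to D0, over 3 group means. Nearest to the median course of the set were *Serping1*, *Cxcl1*, *Ifi44*, *Cbs*, *Jchain*, *Fbp1*, *Alas2* and *Fbln5*. *Serping1* encodes the C1 inhibitor, *Jchain* the joining chain of immunoglobulins, *Alas2* the heme synthesis enzyme of red cells and *Fbln5* a protein of elastic fibres. *Serping1* had means of 79.9, 8.35 and 8.51, at a distance of 0.223. The gene nearest to *Lrat* was *Ptprcap* (distance 0.0959), to *Reln* *Akr1d1* (0.0488), to *Pdgfra* *Art2b* (0.441) and to *Pdgfrb* *Clec3b* (0.302). To *Ngfr* it was *Hspa1b* (0.146), to *Hgf* *Apoc2* (0.102), to *Hand2* *Aass* (0.361), to *Colec11* *Itih4* (0.146) and to *Cygb* *Col15a1* (0.341). *Clec3b* and *Col15a1* were on the list of portal fibroblast markers, and *Apoc2* had means of 13.1, 37.0 and 82.9. All distances used the means as given, also where these lay at the floor. That was so for *Lrat* and *Ngfr* at BDL D14 and *Hand2* at BDL D3, so their nearest genes and distances are not determined. The mean of *Clec3b* at BDL D3, 0.255, also lay at the floor, so the gene nearest to *Pdgfrb* and its distance are not determined either. Likewise the median course at BDL D14 was taken at -3.42 and not at -2.97, the median with means near the floor at their bound.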

How the data were processed

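GFP(+) cells of 12 libraries were sequenced by the submitters, and the deposited signal values are the authors' means per group of counts that they normalized by the upper quartile. Per the labels, STAR 2.6.1d and Partek were used with mm10, and the study's methods name GENCODE M18. Group sizes of 3, 3 and 4 turned the group means into the deposited mean over 10 libraries (99th percentile of the deviation 0.469%, next set 2.70%), so 2 BDL D14 libraries are not in the means. The authors' own p-values, FDR, ratios, fold changes and limits were not used. Depth per library is unknown, and no interval for counting error can be given.

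Genes were kept at a summed normalized count of at least 10 (12891 of 16971). A difference was a ratio of means above 1.5. Means no more than 4 times the lowest that any gene had in the group (0.128, 0.0729 and 0.0610 at D0, BDL D3 and BDL D14) were read as the floor, which assumes that the lowest mean is worth about 1 read per library, and folds against them use that limit. Bounds on single libraries came from the group sums and the highest library, allowing for rounding, and were tested on simulated data. Gene ends are 1 base below the deposited stop, which matched GENCODE M21 in 99.9% of 16950 symbols found, so lengths and overlaps are from M21. Python 3.11.15, numpy 2.4.6, pandas 2.3.3 and matplotlib 3.10.9 were used.

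The named genes are the 9 members, at most 4 genes of each other list by D0 mean, partners past 4-fold from D0 at both times, the 8 genes nearest to the median course and the gene nearest to each member. Some of these genes, and 1 list that rests on them, are not reported here. The 9 genes and the 11 other lists were chosen with earlier results of these data known. Alternatives were other scalings, filters, thresholds, a pseudocount, an offset and leaving out the highest library.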

Additional observations from a re-analysis of the deposited data

How the results depend on the processing

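No paired analysis was possible because the table holds group means and no result comes from a test. Other scalings, filters and thresholds were applied to the group means, and no setting changed the direction of a single stellate cell gene over the minimum. Quantile normalization took *Reln* at BDL D3 under 1.5-fold (log2 ratio -0.47), which left 6 genes lower there. The medians moved more. For the 8 genes over the minimum, the starting medians were -3.77 at BDL D3, -3.16 at BDL D14 and 0.08 for BDL D14 against BDL D3. Quantile normalization changed these to -2.87, -2.41 and -0.033, and the last starting median of 0.08 lies near 0. With no filter, *Ngfr* entered and the medians were those of all 9 genes. They were -3.38 at BDL D3, -3.42 at BDL D14 and -0.87 for BDL D14 against BDL D3. A mean of at least 10 left only *Cygb* and *Hgf*, with medians of -1.69, 0.56 and 2.24, 1 gene lower at BDL D3, 1 lower at BDL D14, 0 lower and 2 higher for BDL D14 against BDL D3, and 1 and 0 genes separated downwards at BDL D3 and BDL D14. A pseudocount of 1 gave medians of -2.43 and -2.11 and left 2 genes lower for BDL D14 against BDL D3. A fold of 4 left 0 genes higher at BDL D3, and 0 lower and 2 higher for BDL D14 against BDL D3. Bounds narrowed by the geometric mean, an alternative chosen after seeing the data, separated *Colec11* too at BDL D14. That made 3 genes, beside 3.20% of all genes over the minimum and 2.86% of all genes listed. Depth per library is unknown, so ranges of single libraries stand in for replicate errors, and a possible overlap is no sign that the groups overlap.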

Other observations

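Lymphocyte markers were also lower in the GFP(+) cells after BDL. Of 8 markers of T, NK and B cells, 7 had means over 1.5-fold below D0 at BDL D3 and 8 at BDL D14. The shares of all genes over the minimum that did so were 29.2% and 28.8%. The list summed to 237, 68.6 and 28.0 normalized counts at D0, BDL D3 and BDL D14. *Cd79b*, a chain of the B cell receptor complex, had means of 82.2, 33.0 and 18.1, and its partner *Cd79a* of 50.6, 10.5 and 1.55. *Ms4a1*, which encodes CD20, had means of 27.5, 3.42 and 1.25, and *Nkg7*, a granule protein of NK and cytotoxic T cells, of 20.5, 3.04 and 1.14. Without the highest D0 library of each gene, *Cd79b* was 1.42-fold and 2.59-fold lower, under the 1.5-fold threshold at BDL D3, in place of 2.49-fold and 4.54-fold. *Ms4a1* was then 4.50-fold and 12.3-fold lower in place of 8.04-fold and 22.0-fold, and *Nkg7*, with 67.0% of its D0 sum in that library, 3.34-fold and 8.90-fold lower. *Cd3d* and *Klrb1c*, named for this check and outside the rule for named genes, had 88.6% and 75.2% of their D0 sums in 1 library. Without that library their means were 2.05-fold and 1.91-fold higher at BDL D3. At BDL D14 they were then 1.91-fold and 1.37-fold lower.

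Markers of mesothelial cells, which cover the liver surface, had low means in all groups. Of 6 mesothelial markers, 3 were over the minimum, and the list summed to 16.3, 6.46 and 9.30. *Msln*, mesothelin, had means of 8.56, 3.46 and 3.11 (without its highest D0 library 1.64-fold and 1.83-fold lower in place of 2.47-fold and 2.75-fold), and *Gpm6a* of 4.76, 0.671 and 5.30. *Upk3b* had means of 2.14, 1.09 and 0.504, and *Wt1*, a transcription factor of the mesothelium, of 0.514, 0.0729 and 0.175, and 1 library held 82.4% of its D0 sum.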
